A study of Mus musculus with 183 samples.

Results

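Primitive endoderm is the extraembryonic layer that lines the blastocyst cavity and later lays down a thick basement membrane. A small share of mouse embryonic stem cells (mESCs) kept in serum drifts towards this fate. The transcription factors Gata6, Gata4, Sox17 and Sox7 take part in setting it up, and the endocytic adaptor Dab2 marks its cells. Laminin-111 (chains Lama1, Lamb1 and Lamc1) and collagen IV (chains Col4a1 and Col4a2) are the main matrix products. These 10 genes were taken from a fixed list of names, chosen with earlier results of these data known. The shares of all genes given below are therefore set beside them as a description, not as a test of the list. Of the 53380 genes counted in the half-life experiment, all 10 had enough reads to be tested in every comparison. In the table of protein binding, 6 of the 10 were listed among 7240 mRNAs (Gata4, Lama1, Lamb1, Lamc1, Col4a1 and Col4a2).

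The counts came from 47 rRNA-depleted RNA-seq libraries of 2 mESC lines grown on gelatin in serum with LIF. The study describes its parental cells as male, of mixed 129 and C57BL/6 background. Clone 5F carried Rosa26 Cre-ERT2/- and Skiv2l fl/fl. Clone 7E carried Rosa26 Cre-ERT2/BirA, 3xFLAG-Avi-tagged Skiv2l on both alleles and Aven-/-, and by the study's cell line table its Skiv2l was floxed as well. Each genotype was 1 clone. Day 0 cells had no 4-hydroxytamoxifen (4OHT), and day 4 cells had 0.1 µM 4OHT for 4 days, which activates the recombinase. Mock cells had DMSO for 6 h, and the other cells were held in actinomycin D, a blocker of transcription, for 120, 240 or 360 min. Each group held 3 libraries, except clone 5F at day 0 and 120 min with 2. The study calls these replicates technical, so every p-value below measures only the spread between such libraries.

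Gene counts totalled 24440935 to 34114250 per library. Skiv2l, the helicase of the cytoplasmic exosome and the target of Cre, had 143 ± 1.25 normalized counts per effective library size (CPM; SD, n = 3) in clone 5F at day 0 and 142 ± 10.1 at day 4. These counts run over the whole gene, not over the floxed exons alone, so they do not show whether recombination took place, and they did not fall in the clone 5F libraries labelled day 4 (log2 difference -0.01, adjusted p = 0.914, edgeR quasi-likelihood test). In clone 7E, Skiv2l fell from 33.2 ± 2.31 to 13.3 ± 0.653 CPM (-1.32, adjusted p = 7.86e-13). Aven was at 34.4 ± 0.235 CPM in clone 5F and 2.29 ± 0.567 CPM in clone 7E at day 0.

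All 10 mRNAs were lower in clone 7E than in clone 5F at day 0, and no library of one clone overlapped the other. Of all genes tested, 18.1% were lower and 18.1% were higher at the same threshold (adjusted p under 0.05, edgeR). The median over the 10 was -2.36 on the log2 scale, against -0.01 over all 17209 genes. The transcription factors and Dab2 differed most, and the laminin chain Lamc1 least. In bulk RNA, fewer cells of a type cannot be told apart from less RNA per cell.

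**Figure D1:**
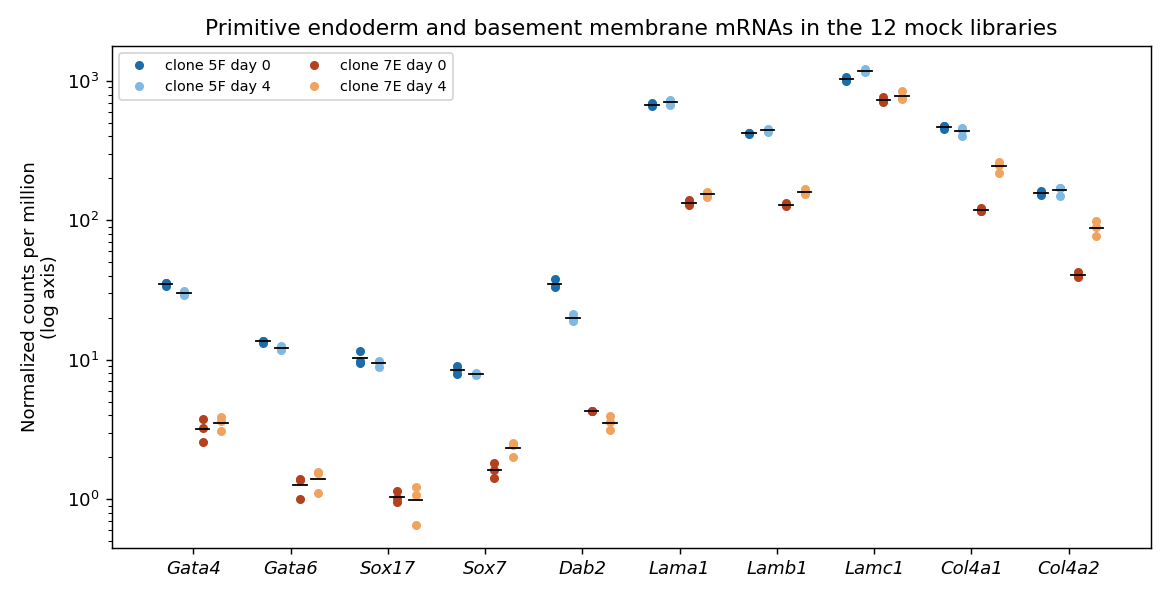
Normalized CPM of the 10 mRNAs in each mock library (points, log axis) with the group mean (black bar) for clone 5F and clone 7E at day 0 and day 4. In every gene, the clone 7E points at day 0 lie below all clone 5F points, and the Col4a1 and Col4a2 points of clone 7E move up at day 4.

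Gata4, a zinc-finger factor of the endoderm lineage, had 35.7, 34.0 and 35.9 CPM in clone 5F at day 0 and 3.74, 2.58 and 3.25 CPM in clone 7E. It was 11.0-fold lower in clone 7E (log2 difference -3.46 ± 0.09 SE, adjusted p = 2.98e-18). Gata6, the factor that starts the program, had 13.6, 13.7 and 13.3 CPM in clone 5F against 1.40, 1.01 and 1.36 CPM in clone 7E, a 10.8-fold difference. The clone 7E values rest on 30 to 41 reads per library.

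Sox17, an HMG-box factor that acts after Gata6, had 9.41, 9.75 and 11.6 CPM in clone 5F and 0.953, 1.14 and 1.01 CPM in clone 7E. This was a 9.86-fold difference (-3.30 ± 0.15). Its relative Sox7 was 5.24-fold lower in clone 7E (-2.39 ± 0.12), at 1.43 to 1.81 CPM against 7.91 to 9.07 CPM. Dab2 was at 33.1, 34.1 and 37.8 CPM in clone 5F and at 4.32, 4.32 and 4.27 CPM in clone 7E. The difference of 8.12-fold was close to those of the factors.

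Among the matrix chains, Lama1 differed most. It is the alpha chain that sets laminin-111 apart from other laminins, and it had 681, 694 and 658 CPM in clone 5F against 133, 141 and 129 CPM in clone 7E (5.04-fold, log2 difference -2.34 ± 0.05). Lamb1, the beta chain, was 3.24-fold lower. Lamc1, the gamma chain that most laminins share, was at 1014, 1062 and 1004 CPM in clone 5F and at 721, 770 and 712 CPM in clone 7E. This was only 1.40-fold lower, yet past the threshold (-0.48 ± 0.05, adjusted p = 1.36e-08). Col4a1 and Col4a2 fell between these, at 3.96-fold and 3.86-fold lower in clone 7E. The collagen chains thus differed by nearly the same factor, while the laminin chains differed by unequal ones.

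Per kilobase of exon, the order within clone 5F at day 0 ran from Lamc1 at 124 ± 3.71 CPM per kb to Gata6 at 2.08 ± 0.0370 CPM per kb. Lama1 (70.0 ± 1.91), Col4a1 (63.1 ± 1.82), Lamb1 (42.4 ± 0.471) and Col4a2 (23.8 ± 0.766) CPM per kb lay between Lamc1 and Gata4 (9.01 ± 0.261 CPM per kb). Sox17 at 2.15 ± 0.249 CPM per kb did not differ from Gata6 beyond the SD. In clone 7E at day 0, Col4a1 (15.9 ± 0.508), Lama1 (13.9 ± 0.638) and Lamb1 (13.1 ± 0.377) CPM per kb followed Lamc1 (88.8 ± 3.74), and Lama1 and Lamb1 lay within their SDs of each other. With the shorter transcript that the authors chose for Lamb1, its level in clone 5F was 75.7 CPM per kb, above that of Lama1 at 71.2, so the order of these chains depends on the gene model.

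Genes near the 10 in function were also lower in clone 7E. Of 30 further primitive endoderm genes, 27 were tested, 21 were lower and 1 was higher (median -1.17). Sparc, a collagen-binding matrix protein, differed by -1.18 ± 0.04, the scavenger receptor Lrp2 by -1.25 ± 0.04 and Serpinh1, the collagen chaperone, by -1.25 ± 0.06. Of 24 tested basement membrane genes outside the 10, 10 were lower and 0 higher (median -0.45), Nid2, Lama5 and Nid1 among them at -0.41, -0.49 and -0.60. Of 23 genes that fold and export collagen and laminin, 14 were lower and 2 higher, with P4hb, a prolyl hydroxylase subunit, at -0.50. Laminin and collagen IV receptors went both ways, with 4 of 15 higher and 4 lower, and the shared integrin chain Itgb1 was higher by 0.51.

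Markers of other states moved between the clones too. Of 16 epiblast and naive pluripotency genes, 10 were higher and 3 lower in clone 7E, and Pou5f1 was among the lower at -0.20. Their summed level ranged from 4217 to 4275 CPM in clone 5F and from 4281 to 4402 CPM in clone 7E at day 0. Of 8 tested fibroblast genes, 6 were lower and 0 higher (summed level 176 to 182 CPM against 104 to 110 CPM). Of 6 primed epiblast genes, 4 were lower, Dnmt3b by -1.32, and 1 was higher, Otx2 by 0.76 ± 0.07. Of 5 neuroectoderm genes, 3 were higher and 1 lower in clone 7E, Pax6 by 1.06 ± 0.06 and Tubb3 by 0.71 ± 0.07 (summed level of 6 genes 116 to 125 CPM against 167 to 179 CPM). Of 6 trophoblast genes, 2 were higher and 1 lower, Tfap2c by 0.76 ± 0.05 (summed level of 8 genes 52.4 to 54.1 CPM against 83.5 to 85.5 CPM). Mesoderm and definitive endoderm genes stayed near the floor, at 7.54 to 10.4 CPM summed over 10 genes in all 6 libraries. FGF and ERK signalling pushes cells towards primitive endoderm, and the list of its genes holds its regulators too. Of these, 7 of 18 were higher in clone 7E, Spry2 by 0.56 among them, and 4 were lower, the ligand gene Fgf4 by -0.38. The part of these differences in the levels of the 10 was not tested.

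The clones also differed in Y-linked mRNAs. Eif2s3y was at 97.0 to 110 CPM in clone 5F at day 0 and at 0.201 to 0.340 CPM in clone 7E. The absence of AVEN, the tagged Skiv2l alleles, the BirA allele, the lower Skiv2l level and the origin of the line cannot be told apart in this comparison.

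Over the 12 mock libraries, the mean profile of the 10 (each standardized on the log2 scale) was closest to that of Lamb1 (Pearson r = 0.999) and least close to that of Col4a2 (r = 0.933). Among 10259 genes with at least 5 CPM, the 5 genes outside the 10 most like this profile were Klhl13 (r = 0.995), Eif2s3y (0.994), Nxf7 (0.993), P4ha2 (0.993) and Pim2 (0.992). The 12 points fall into the 2 clones, so these values mostly measure the gap between them. P4ha2, a collagen prolyl hydroxylase subunit, lies on chromosome 11, and the other 4 lie on chromosomes X and Y.

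In clone 5F, Dab2 was lower in the libraries labelled day 4 while most of the other 9 mRNAs stayed near their day 0 level. Dab2 went from 33.1, 34.1 and 37.8 CPM to 19.8, 21.2 and 19.0 CPM, without overlap. The fall was 1.75-fold (log2 difference -0.81 ± 0.07, adjusted p = 2.64e-08), deeper than that of all but 0.508% of genes. Gata4 fell slightly, from 34.0 to 35.9 CPM down to 29.4, 29.9 and 31.0 CPM (-0.22 ± 0.06, adjusted p = 0.00720), and without replicate 1 or without replicate 3 it no longer passed (adjusted p = 0.114 and 0.0553). Lamc1 rose by 0.21 ± 0.04 (adjusted p = 0.00152), and it did not pass without replicate 3 (0.0731) or with each library scaled to its own spike-ins (0.141).

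Thus 1 of the 10 was higher and 2 were lower, where 12.8% of all genes were higher and 11.6% lower. The remaining 7 gave log2 differences from -0.17 for Gata6 to 0.07 for Lamb1. Of 23 tested basement membrane genes outside the 10, 15 were higher and 0 lower (median 0.49), Fn1, the fibronectin gene, by 0.50 ± 0.05. Further primitive endoderm genes split into 7 higher and 7 lower of 27 (median 0.02). The loss of the floxed exons was not measured in these libraries, and its part in these values was not tested.

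**Figure D2:**
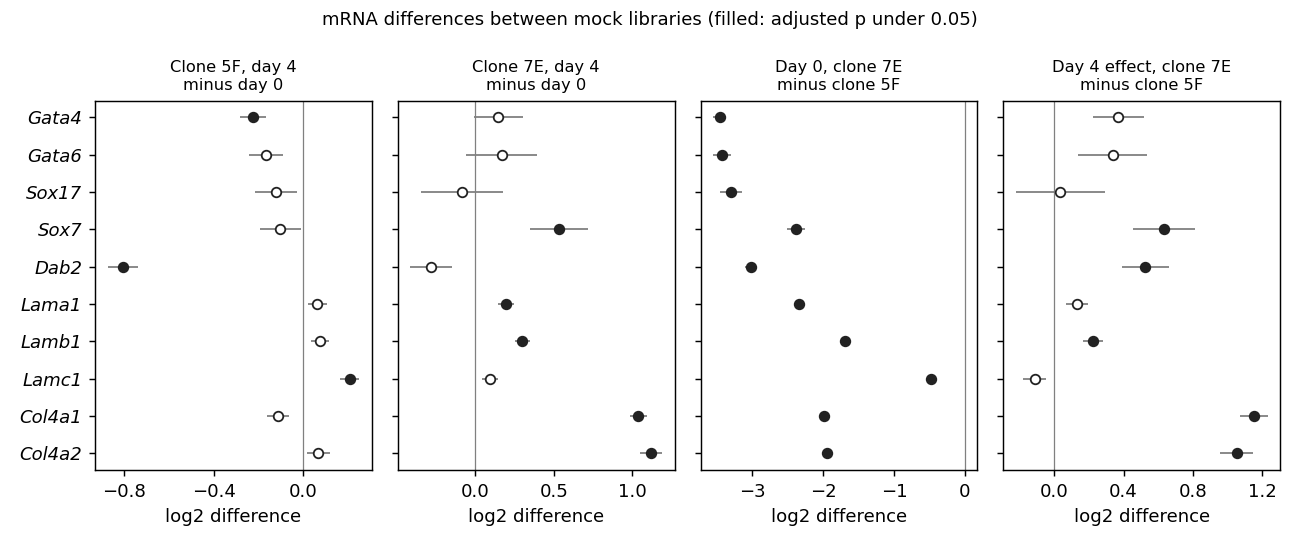
Log2 differences (points, with standard errors) of the 10 mRNAs in 4 comparisons of mock libraries, with filled points for an adjusted p under 0.05. The x axes differ in range. All 10 points are filled and left of 0 for clone 7E against clone 5F, and Col4a1 and Col4a2 stand near 1 for day 4 in clone 7E.

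In clone 7E, where Skiv2l fell, the collagen IV pair rose at day 4. Col4a1 went from 116, 117 and 123 CPM to 250, 220 and 261 CPM, a 2.05-fold rise (log2 difference 1.04 ± 0.06, adjusted p = 3.25e-13). Col4a2 went from 39.4, 42.8 and 40.1 CPM to 89.3, 77.6 and 98.8 CPM, a 2.17-fold rise (1.12 ± 0.07, adjusted p = 5.21e-12). In neither gene did the groups overlap, and every day 4 library of clone 7E stayed below every clone 5F library.

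The laminin chains moved far less. Lamb1 rose by 0.30 ± 0.05 (from 127 to 134 CPM up to 155 to 168 CPM, adjusted p = 2.84e-05) and Lama1 by 0.19 ± 0.05 (adjusted p = 0.00331), while Lamc1 gave 0.09 ± 0.05 (adjusted p = 0.146). The Lama1 call was lost without replicate 1 (adjusted p = 0.0684) or replicate 3 (0.0567). Sox7 rose by 0.53 ± 0.18, from 1.43, 1.81 and 1.61 CPM to 2.02, 2.46 and 2.52 CPM (adjusted p = 0.0241), on 42 to 77 reads per library. That call was lost when any replicate was left out (adjusted p 0.0611 to 0.111) and in DESeq2 (0.0722). Gata4, Gata6, Sox17 and Dab2 gave 0.14, 0.17, -0.09 and -0.28, none past the threshold.

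In all, 5 of the 10 were higher at day 4 in clone 7E and 0 were lower, with 20.7% of all genes higher and 19.4% lower. The scale matters here. The ratio of gene counts to spike-in counts in mock libraries was 312 to 322 at day 0 and 151 to 156 at day 4 of clone 7E, so with own spike-ins the median of all genes shifted by -1.105. On that scale Col4a1 gave -0.06 and Col4a2 0.02, which is 1.04 and 1.13 above the median gene, and the other 8 gave -1.38 (Dab2) to -0.57 (Sox7). The rise of collagen IV mRNA is therefore relative to the bulk of mRNA, not per spike-in molecule.

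Neighbouring genes were also higher at day 4 in clone 7E. Of 19 tested basement membrane genes outside the 10, 14 were higher and 0 lower (median 0.82), Hspg2, the perlecan gene, by 0.82 ± 0.09 and Nid2 by 0.49 ± 0.05. Many of this list were higher at day 4 in clone 5F as well (15 of 23), where the collagens did not rise past the threshold. There Hspg2 went from 313 ± 54.3 to 557 ± 53.55 CPM, and Nid2 rose by 0.29 ± 0.05. Of 25 further primitive endoderm genes, 13 were higher and 3 lower, Lrp2 by 1.098 ± 0.05 and Sparc by 0.83 ± 0.04. Of 23 genes for collagen and laminin biosynthesis, 11 were higher and 1 lower, Serpinh1 by 0.78 ± 0.06 and Plod2, a lysyl hydroxylase, by 0.42 ± 0.05. Of 15 laminin and collagen IV receptor genes, 12 were higher and 1 lower, Itgb1 by 0.38 ± 0.05.

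Markers of other lineages moved in the same libraries, in both directions. Of 8 fibroblast genes, 6 were higher and 0 lower (median 1.24), the smooth muscle actin gene Acta2 by 2.02 ± 0.15 and Tagln by 1.36 ± 0.07. Their summed level went from 104 to 110 CPM up to 156 to 170 CPM. Most of it was Vim (80.8 ± 1.49 to 97.7 ± 2.98 CPM) and Tagln (20.1 ± 1.77 to 51.3 ± 3.93 CPM). Col1a1 went from 1.01 ± 0.287 to 2.29 ± 0.344 CPM and Thy1 from 0.921 ± 0.126 to 2.92 ± 0.349 CPM. Pdgfrb went from 1.035 ± 0.0549 to 0.884 ± 0.317 CPM. Col1a2, Col3a1, Postn and Lum stayed near the floor, with means of at most 0.514 CPM in clone 7E. Of 6 trophoblast genes, 5 were higher. Most of their summed level was Tfap2c, a gene also active in mESCs, which went from 74.95 ± 1.27 to 108 ± 0.376 CPM (0.53 ± 0.05), while Krt7 went from 3.58 ± 0.377 to 11.5 ± 0.918 CPM (1.69 ± 0.11). Of 5 neuroectoderm genes, 1 was higher (Nes, by 1.45 ± 0.05) and 2 were lower (Sox1 by -2.05 ± 0.12 and Pax6 by -0.32 ± 0.06). Of 6 primed epiblast genes, 3 were higher and 3 lower, Otx2 by -0.64 ± 0.07 and Dnmt3a by -0.49 ± 0.05. Of 16 epiblast and naive pluripotency genes, 10 were lower and 2 higher. Of 18 FGF and ERK pathway genes, 7 were lower and 2 higher, and Fgf4 fell by 0.93 ± 0.05. The part of these cells or states in the collagen IV rise was not tested.

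The day 4 effect itself differed between the clones for 5 of the 10, each more positive in clone 7E. The background was 6.65% of genes more positive and 5.29% more negative. The difference, clone 7E minus clone 5F, was 1.15 ± 0.08 for Col4a1 (adjusted p = 7.13e-10) and 1.05 ± 0.09 for Col4a2 (4.27e-08). It was 0.63 ± 0.18 for Sox7 (adjusted p = 0.0229), 0.53 ± 0.13 for Dab2 (0.0109) and 0.22 ± 0.06 for Lamb1 (0.0125). The last 3 were lost in at least 2 of the 3 fits without a replicate. With own spike-ins none of the 5 was called more positive. Col4a1 gave 0.12 (adjusted p = 0.193) and Col4a2 0.02 (0.824), while Sox7 (-0.39), Dab2 (-0.50) and Lamb1 (-0.81) turned negative, against a median of -1.03 over all genes. Gata4 gave 0.37 ± 0.15 (adjusted p = 0.107). On the main scale, 6 of 24 basement membrane genes outside the 10 were more positive in clone 7E and 3 more negative. For further primitive endoderm genes the counts were 11 and 2 of 27, for biosynthesis genes 7 and 0 of 23, and for receptor genes 5 and 0 of 15.

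Col4a1 and Col4a2 lie head to head on mouse chromosome 8. In the Gencode M21 annotation (GRCm38), Col4a1 spans chr8:11198423-11312826 on the minus strand and Col4a2 spans chr8:11312805-11449287 on the plus strand, so that their first exons overlap by 22 bases on opposite strands. The labels give the TruSeq v2 kit for all 47 libraries, which does not mark strand, and reads in these 22 bases, 0.295% of the exonic length of Col4a1, cannot be told apart. The same limit is larger elsewhere among the 10. Exons on the opposite strand cover 16.8% of the exonic length of Sox17 (Gm37587), 2.87% of Dab2 (Gm18888) and 1.43% of Gata6. Their part in the levels and half-lives of these genes was not tested. The start windows of RefSeq (GRCm38.p6, 250 bases before to 50 after each start) share 78 bases and hold 74.0% and 73.7% G and C, against a median of 52.7% over 32851 windows. The stretch below is shown because it lies at the shared start of the pair that rose together. It is a run of 27 bases at chr8:11312773-11312799, plus strand, which ends 6 bases before the Col4a2 start and lies within the first 54 transcribed bases of Col4a1.
Col4a2 start: CCAATttgttggcgctgcCCCCTCCCC
Capitals mark a CCAAT box (CCAAT) and a pyrimidine-rich run (CCCCTCCCC), searched on both strands. On both strands, CCAAT is in 37.4% of the windows and CCCCTCCCC in 6.37%. The same CCCCTCCCC copy stands in both start windows, and neither window holds the TATA box TATAAA or a GATA motif (AGATAA was searched, and also TGATAA). Windows were at hand for 4 of the 10 genes (Col4a1, Col4a2, Lamb1 and Dab2). Lamb1 has CCAAT and lacks CCCCTCCCC, and 1 of the 2 Dab2 windows has both GATA motifs, the letters read by GATA factors. AGATAA is in 11.2% of all windows, and TGATAA is in 9.05%. These matches are descriptions of the letters.

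The transcription factor mRNAs were short-lived and the matrix mRNAs long-lived in both clones and on both days. Half-lives of Gata4, Gata6, Sox17 and Sox7 ranged from 73.8 to 147 min in clone 5F at day 0, and those of Dab2, the laminins and the collagens IV from 392 to 563 min. The median gene was at 283 min. The ranges did not overlap in the other groups either, at 75.8 to 165 min and 394 to 559 min in clone 5F at day 4, 82.8 to 152 min and 368 to 703 min in clone 7E at day 0, and 90.2 to 196 min and 320 to 378 min in clone 7E at day 4. Each half-life is from a straight line through the log counts of 11 or 12 libraries and is given as a description. Without the mock libraries the lines gave 96.2 to 487 min for the factors and 378 to 977 min for the others over the 4 groups, so the ranges then overlapped.

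**Figure D3:**
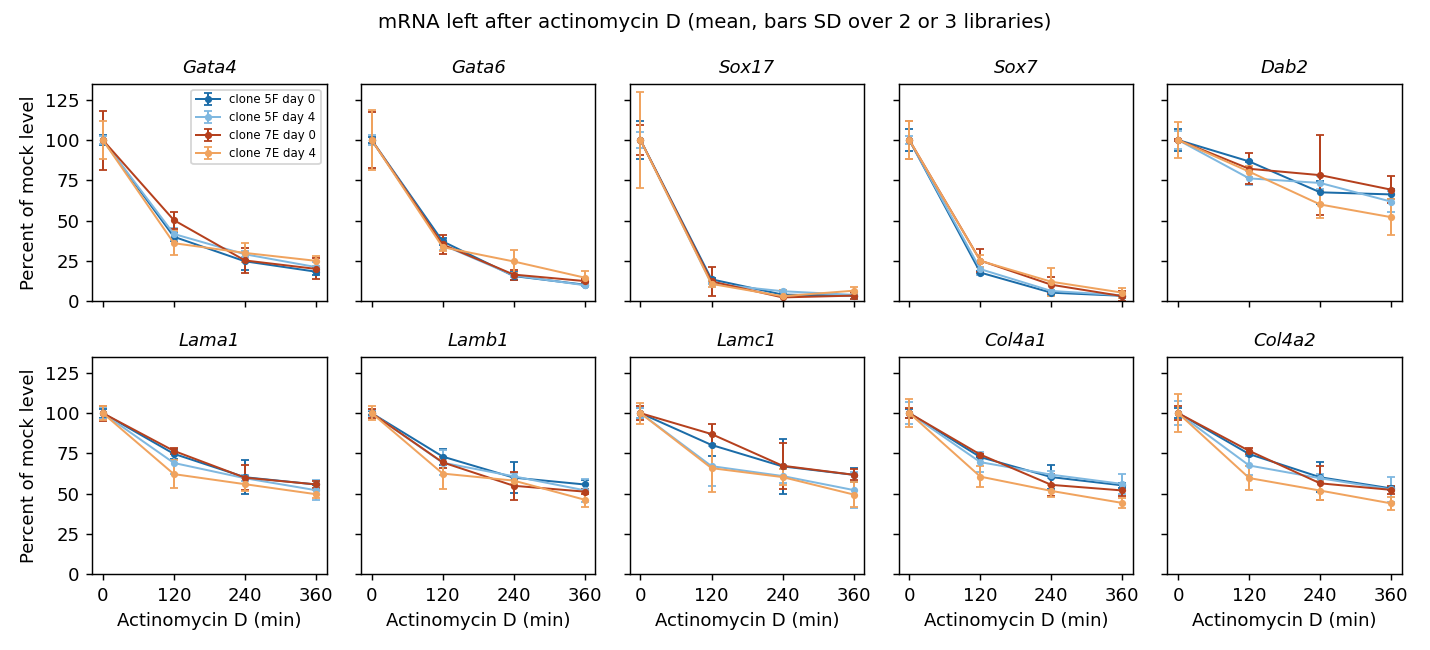
Percent of the mock mean left after 120, 240 and 360 min of actinomycin D, as means with SD over 2 or 3 libraries, for each clone and day. At 240 min the means of Sox17 and Sox7 are at most 12.0% in every group, while at 360 min those of Dab2, the laminins and the collagens IV are at least 44.0%.

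Sox17 and Sox7 fell fastest. For Sox17 in clone 5F at day 0, 13.5% ± 0.838 (SD, n = 2) of the mock level was left at 120 min, 4.03% ± 1.103 at 240 min and 3.34% ± 0.212 (n = 3) at 360 min. Sox7 followed with 17.7% ± 0.899, 5.22% ± 1.70 and 3.28% ± 0.803. Their half-lives from the line were 74.0 min (range of ± 1 SE 66.0 to 84.1) and 73.8 min (67.5 to 81.5), and 1.06% and 1.04% of the 18623 expressed genes decayed faster. The curve bent, and the interval from 0 to 120 min alone gave 41.6 min for Sox17 and 48.0 min for Sox7. In clone 7E, Sox17 was listed at 0 reads in some libraries at 240 min, so its decay there is not resolved beyond 120 min.

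Gata6 had a half-life of 108 min (102 to 115) in clone 5F at day 0 and 130 min (118 to 145) in clone 7E. In clone 7E, Gata6 was down to 0.156 CPM at 360 min, and the line adds 1 to each count, which flattens the slope of rare mRNAs. The edgeR test of the slopes gave 0.04 ± 0.07 log2 per h between the clones (unadjusted p = 0.579). Gata6 kept 37.1% ± 2.14 at 120 min and 10.2% ± 0.876 at 360 min in clone 5F. Gata4 was the slowest of the factors, at 147 min (134 to 162) and 152 min (135.2 to 174), with 40.0% ± 2.89 left at 120 min and 18.3% ± 2.26 at 360 min. The ranges of Gata4 overlapped between the clones.

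Dab2 was the most stable of the 10 in clone 5F at day 0, at 563 min (489 to 663), slower than 82.8% of genes, with 66.2% ± 3.12 left at 360 min. Lamc1 came next at 500 min (407 to 649). Lamb1 (420 min), Lama1 (417 min), Col4a1 (416 min) and Col4a2 (392 min) lay within one another's ± 1 SE ranges, and 53.3% to 55.7% of each was left at 360 min. In clone 7E at day 0, Col4a1 and Col4a2 were at 368 min (332 to 413) and 369 min (327 to 423), and at day 4 both were at 320 min, with 44.3% ± 3.16 and 44.0% ± 4.12 left at 360 min. The collagen IV half-lives were thus shorter in value at day 4, with overlapping ± 1 SE ranges.

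No difference in decay rate passed the threshold for any of the 10. In clone 5F between the days, the difference in slope ranged from -0.03 ± 0.04 (Lamc1) to 0.07 ± 0.12 (Sox17) log2 per h, with 0.196% of all genes called. In clone 7E between the days it ranged from -0.08 ± 0.04 (Dab2, adjusted p = 0.617) to 0.20 ± 0.23 (Sox17), with 0.884% called. Between the clones at day 0 it ranged from -0.15 ± 0.17 (Sox17) to 0.04 ± 0.13 (Sox7), with 0.0376% called. For Col4a1 in clone 7E, the difference was -0.03 log2 per h (95% interval -0.08 to 0.03), and for Dab2 in clone 5F it was 0.00 (-0.05 to 0.05). None of the 10 had an unadjusted p under 0.05, and DESeq2 called none. Intervals were wide for the rarest mRNAs, -0.24 to 0.64 log2 per h for Sox17 in clone 7E. Missing the threshold does not show equal decay.

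Among the neighbouring lists, expressed basement membrane genes outside the 10 had a median half-life of 492 min in clone 5F at day 0 and 365 min in clone 7E. Collagen and laminin biosynthesis genes had 421 and 398 min, and FGF and ERK pathway genes 138 and 153 min. No gene of the primitive endoderm, basement membrane, biosynthesis or receptor lists passed in any decay comparison.

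Binding was measured by CRAC, in which a tagged protein is crosslinked to RNA and the bound fragments are sequenced. The deposited table gives SKIV2L, MTR4 (the nuclear exosome helicase) and XRN1 (the cytoplasmic 5′-3′ exonuclease) as shares that sum to 1 in each mRNA. AVEN, a protein that binds ribosomes and mRNA, has a further column of counts relative to the counts of these 3 proteins together, so it can exceed 1. The pooled values have no replicate error, so ranks among the 7240 mRNAs are given with no test.

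The collagen IV and laminin alpha mRNAs had the 3 highest AVEN values of the table. Col4a1 ranked 1 at 2.96, Lama1 2 at 2.54 and Col4a2 3 at 2.45, with a median of 0.296 and a 95th percentile of 0.624 over all mRNAs. Lamb1 ranked 8 at 1.69, Lamc1 63 at 0.952 and Gata4 273 at 0.676, so that all 6 lay above the 95th percentile. The genes between Col4a2 and Lamb1 in this order were Rex1bd, Cox11, Mrps11 and Med29. Col4a1 and Col4a2 had low RNA levels in the authors' other tagged lines, with median RPKM of 4.88 and 2.27. These were lower than all but 11.9% and 3.78% of the listed mRNAs. The AVEN value is not divided by RNA level, but the counts of the 3 proteins beneath it came from lines with this low level.

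**Figure D4:**
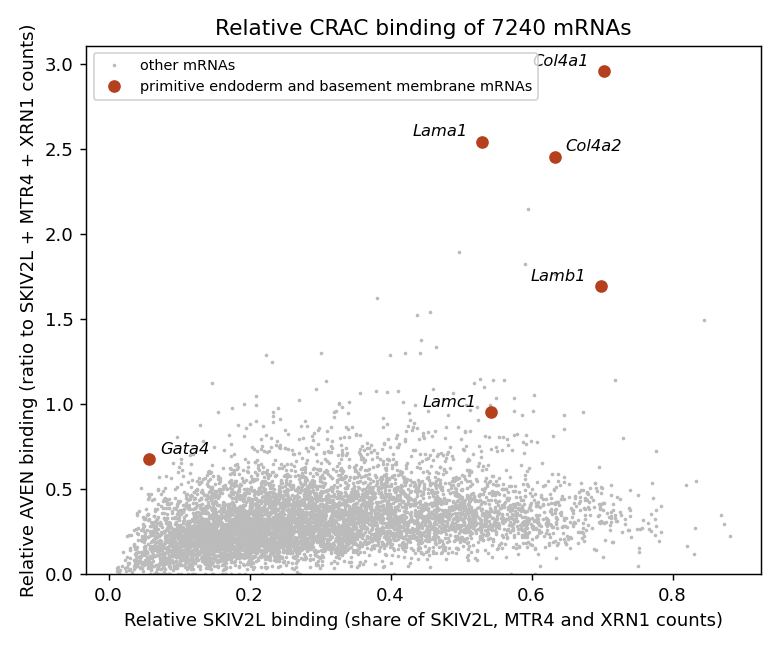
Relative AVEN binding against relative SKIV2L binding for 7240 mRNAs (grey) and the 6 listed primitive endoderm and basement membrane mRNAs (red). Col4a1, Lama1 and Col4a2 lie above 2.4 on the AVEN axis and Gata4 lies at the left edge, at a SKIV2L share of 0.0579.

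The SKIV2L share separated the matrix mRNAs from Gata4. Col4a1 (0.702, percentile 99.0), Lamb1 (0.699, 98.9), Col4a2 (0.633, 97.2), Lamc1 (0.542, 92.1) and Lama1 (0.530, 91.1) were high, against a median of 0.267. Gata4 was at 0.0579, percentile 1.98, and MTR4 held the largest of its shares (0.592, percentile 88.4). XRN1 shares were low for Col4a1 (0.117), Lamb1 (0.131) and Col4a2 (0.142), against a median of 0.337, and 0.350 for Gata4. In the authors' columns that correct each share for the RNA level of that protein's line relative to the median line, the SKIV2L percentiles were 88.7 to 99.9 for the matrix mRNAs and 1.93 for Gata4.

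The RNA level behind these ratios differed between cell lines. Col4a1 had 7.12, 4.88 and 3.35 RPKM in the authors' XRN1, SKIV2L and MTR4 lines, and Col4a2 3.81, 2.27 and 1.40 RPKM. Gata4 was at 0.400, 0.292 and 0.264 RPKM, lower than all but 0.221% of the listed mRNAs, so its shares rest on few molecules. By median RPKM over these lines, none of them Aven-/-, Gata4 was at 0.292, Lama1 at 16.7 and Lamb1 at 24.1. Lamc1 was at 83.4, Col4a1 at 4.88 and Col4a2 at 2.27. In the same order, clone 5F at day 0 had 9.01, 70.0, 42.4, 124, 63.1 and 23.8 CPM per kb. Clone 7E had 0.817, 13.9, 13.1, 88.8, 15.9 and 6.16 CPM per kb. The scales were not matched, so which clone stands apart was not tested. The table used here holds no RNA level for the AVEN line, and the levels of most of these mRNAs differed several-fold between the clones above. The part of a higher RNA level in the AVEN line in its values was not tested. Of 7 further primitive endoderm mRNAs in the table, 4 were above the 95th percentile for AVEN, Sparc (1.49), Serpinh1 (1.33), Lrp2 (1.09) and Podxl (0.811). Of 10 further basement membrane mRNAs 4 were, and of 14 epiblast and 16 FGF and ERK mRNAs 0 were. Lrp2 and Podxl had low median levels of 2.38 and 4.57 RPKM, while Sparc and Serpinh1 were at 204 and 20.5 RPKM.

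The collagen chains repeat glycine at regular steps along the helix, and glycine is coded by GGN. GGN codons made up 28.6% of the 1669 codons of Col4a1 and 27.6% of the 1707 of Col4a2, ranks 3 and 5 of 6708 coding sequences with a median of 6.21%. Lamb1 and Lamc1 had 7.56% and 7.28%, Gata4 13.4%, and Lama1 was not compared because its transcript model had another length. The stretches below are the 30 codons richest in GGN in each mRNA, 5′ to 3′ on the coding strand, shown because the mRNAs with the most and the least AVEN among the matrix chains differ in them. Capitals mark the GG of each in-frame GGN codon. They lie in exon 26 of Col4a1 (chr8:11226395-11226484, minus strand, GRCm38), exon 7 of Col4a2 (chr8:11401157-11401246, plus) and exon 12 of Lamc1 (chr1:153247328-153247417, minus).
Col4a1 codons 580 to 609: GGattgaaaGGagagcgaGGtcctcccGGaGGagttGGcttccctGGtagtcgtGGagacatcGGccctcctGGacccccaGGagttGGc
Col4a2 codons 124 to 153: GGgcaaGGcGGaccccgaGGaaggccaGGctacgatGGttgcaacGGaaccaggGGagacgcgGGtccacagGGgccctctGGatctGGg
Lamc1 codons 676 to 705: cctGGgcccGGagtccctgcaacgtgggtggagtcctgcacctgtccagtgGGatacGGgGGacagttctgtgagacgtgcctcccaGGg
The collagen stretches hold 12 GGN codons each and that of Lamc1 holds 6. Lama1, which is no collagen, ranked between the collagen chains for AVEN, and over the 6708 coding sequences the Spearman correlation of the AVEN value with the GGN share was 0.00820 and with GC content 0.0165. Both are over mRNAs that share libraries and are given as descriptions.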

How the data were processed

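The authors aligned rRNA-depleted, unstranded RNA-seq reads to the mouse genome (mm10) with STAR and counted unique reads per Gencode gene, and the deposited counts (47 libraries, 53380 genes, 92 spike-ins) were used as they are. Symbols were matched for 53274 genes through Gencode M21. Libraries of the same time point were put on a common scale with DESeq2 size factors, and the time points were set against each other through the 34 spike-ins with a mean over 50 counts, using a single factor for each. CPM are counts over this effective library size. Tests used the edgeR 4.0.16 quasi-likelihood test (glmQLFit, filterByExpr) with Benjamini-Hochberg adjustment over all tested genes. Within-clone comparisons used that clone's libraries, comparisons of clones used all, decay was a slope over hours, and DESeq2 1.42.0 was an alternative. Standard errors are the log2 difference over the root of F. Half-lives are ln 2 over the slope of ln(normalized count + 1) against minutes. The deposited relative CRAC values are a ratio computed by the authors from libraries pooled by protein (for AVEN relative to the other 3 proteins together), the deposited RPKM are the authors' values for tagged lines, and the deposited values corrected for RPKM are a score that equals the share times the median RPKM over the RPKM of that protein's line (checked within a relative tolerance of 0.001). Fold changes, adjusted p-values and half-lives made by the authors were not used. The scripts were tested on simulated data. No library pair of a group differed by as little as sampling noise (lowest chi-square per gene 2.59 over 46 pairs). The members and lists were chosen with earlier results of these data known. All 10 members are named in each comparison, from every other list up to 3 genes past the threshold with the highest mock level, and the 5 genes most like the members.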

Additional observations from a re-analysis of the deposited data

Results flagged for a closer look

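For 5 of the 10 mRNAs, the change from day 0 to day 4 of 4OHT in mock libraries differed between the clones in a test of the difference itself (edgeR interaction term, adjusted over all genes). The log2 difference, clone 7E minus clone 5F, was 1.15 for Col4a1, 1.05 for Col4a2, 0.63 for Sox7, 0.53 for Dab2 and 0.22 for Lamb1. With own spike-ins Sox7, Dab2 and Lamb1 turned to -0.39, -0.50 and -0.81, and the Col4a1 and Col4a2 calls were lost (adjusted p = 0.193 and 0.824). Leaving out a replicate also ended the Sox7, Dab2 and Lamb1 calls in at least 2 of 3 fits. For Dab2 it came from the fall in the clone 5F libraries labelled day 4, and for the collagens from the rise in clone 7E. The whole-gene count of Skiv2l fell in clone 7E and not detectably in clone 5F, its own difference being -1.31 ± 0.09 (adjusted p = 4.43e-10).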

How the results depend on the processing

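Of 1150 recomputed values, 953 were labelled the same. For log2 differences this meant the same direction and side of the threshold, and for half-lives and levels per length a move within their error. Counts of genes were held to a set ratio, and binding percentiles to a set number of points. With own spike-ins, 14 values reversed, all of them for day 4 in clone 7E or its difference from clone 5F, where all genes shifted by -1.105 and -1.03. For day 4 in clone 7E these were Gata4 -0.95, Gata6 -0.93, Sox7 -0.57, Lama1 -0.90, Lamb1 -0.80, Lamc1 -1.005 and Col4a1 -0.0601, with 0 of the 10 higher, 8 lower and 14974 genes called. For the difference between clones they were Gata4 -0.66, Gata6 -0.69, Sox17 -0.99, Sox7 -0.39, Dab2 -0.50, Lama1 -0.90 and Lamb1 -0.81, with 0 higher, 7 lower and 14372 called. In clone 5F own spike-ins left 0 of the 10 higher. The share of higher genes among those called went from 52.4% to 31.1% (clone 5F), from 51.6% to 1.72% (clone 7E), from 49.9% to 20.1% (between clones) and from 55.7% to 0.376% (difference of effects).

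Leaving out 1 replicate gave 1857 to 4399 genes, 0 to 2 higher and 1 to 2 lower of the 10 for day 4 in clone 5F, 4320 to 5949 genes and 3 to 5 higher in clone 7E, 4089 to 5328 genes and 10 to 10 lower between clones, and 753 to 1446 genes and 2 to 3 higher for the difference of effects. In decay it gave 2 to 4, 26 to 50 and 0 to 0 genes (clone 5F, clone 7E, between clones), and the last had 509 to 612 genes at an unadjusted p under 0.05. With 2 libraries a group there is less power by construction. Other settings moved the decay counts of 35, 154 and 7 genes to 53, 242 and 18 (TMM, no spike factor), 19 and 4 (own spike-ins, clone 5F and between clones), 270 and 29 (DESeq2, clone 7E and between clones), 14, 236 and 61 (without mock) and 84 and 2 (without 360 min, clone 7E and between clones), and none called any of the 10. Why was not tested. Without mock libraries all 40 half-lives were longer, 96.2 to 487 min for the 4 factors and 378 to 977 min for the others, so the gap between these no longer held for every mRNA.

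Same-numbered mock libraries did not deviate together (r from -0.44 to -0.05), so the numbers were not taken as pairs. A replicate block gave 2951, 6012, 6044 and 1929 genes in the 4 mock comparisons and 26, 115 and 7 in decay, with the same number of the 10 called. Fitting only the 6 day 0 mock libraries, chosen after seeing the data, gave 10 of the 10 lower in clone 7E.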

Other observations

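The clones differed in mRNAs of the Y chromosome, genes chosen after Eif2s3y appeared among those most like the primitive endoderm profile. Ddx3y was at 88.5 ± 3.39 CPM in clone 5F and 0.0455 ± 0.0195 CPM in clone 7E at day 0, and Uty at 57.9 ± 4.16 and 0.0679 ± 0.0901 CPM (SD, n = 3). At day 4 they were at 101 and 62.1 CPM in clone 5F and at 0.0926 and 0.0802 CPM in clone 7E. Kdm5d was at most 0.109 CPM and Xist at most 0.469 CPM in the 12 mock libraries. Klhl13, an X-linked gene, was at 346 ± 14.4 CPM in clone 5F and 82.7 ± 6.52 CPM in clone 7E at day 0.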
